A study of Mus musculus with 18 samples.

Results

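The genes described here are 9 inflammatory CC chemokine genes of the mouse, the ligands Ccl2, Ccl3, Ccl4, Ccl5, Ccl7, Ccl8 and Ccl12 and the receptors Ccr1 and Ccr2, taken by name from the 50600 genes of the table. All 9 were found and all 9 passed the filter on low counts. They were measured by RNA sequencing in 18 whole tumors of B16F10, a mouse melanoma cell line, grown under the skin of C57BL/6 mice that had no engineered allele named in the labels. Injections were intratumoral (IT), and each tumor was collected 24 h after its last one. CDN2 is a cyclic dinucleotide that activates STING (the titles write CL656 where the protocol in the labels writes CDN2, and they were taken as 1 agent), and exoCDN2 is CDN2 loaded into extracellular vesicles (EVs). The 5 groups collected after 1 dose received PBS, unloaded EVs, CDN2 at 100 µg, CDN2 at 20 µg or exoCDN2 carrying 0.1 µg. The 4 groups that had a second dose 3 days after the first received PBS, exoCDN2 (0.1 µg), 20 µg of CDN2, or CDN2 with no amount in its label, here called the unstated amount. Every group had 2 tumors. Per the study's methods the C57BL/6 mice were female and were bought at 5 to 6 weeks of age. As the RNA came from whole tumors, fewer cells of a type and less RNA per cell cannot be told apart.

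CC chemokines are small secreted proteins that guide leukocytes through G protein-coupled receptors, and their name comes from a pair of neighboring cysteines near the start of the mature protein. Ccl2, Ccl7 and Ccl12 are monocyte chemoattractant proteins that act through CCR2, the receptor by which classical monocytes leave the bone marrow and enter inflamed tissue. Ccl8 belongs to the same subgroup by sequence, but in mice it acts mainly through CCR8. Ccl3 and Ccl4 are the macrophage inflammatory proteins MIP-1α and MIP-1β, and Ccl5 is RANTES. Ccl3 and Ccl5 act through CCR1, among other receptors. CCR1 is found on monocytes, macrophages and, in the mouse, neutrophils. STING signals through IRF3 and NF-κB, and both are known to drive chemokine genes in myeloid and stromal cells.

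The 7 ligand genes lie on chromosome 11 in 2 clusters (GRCm38). Ccl2 (chr11:82035571-82037453), Ccl7 (chr11:82045712-82047525), Ccl12 (chr11:82101845-82103400) and Ccl8 (chr11:82115185-82116799) lie on the plus strand within 1 cluster, with Ccl11 between Ccl7 and Ccl12. Ccl5 (chr11:83525778-83530518, minus), Ccl3 (chr11:83647844-83649355, minus) and Ccl4 (chr11:83662584-83664683, plus) form the other cluster. Ccr1 (chr9:123962124-123968692, minus) and Ccr2 (chr9:124101950-124113557, plus) lie on chromosome 9. For 6 of the ligands, the codons of the cysteine pair that names the family are shown in capitals below with the coding bases on either side, read 5′ to 3′ from GRCm38, each stretch within 1 exon. The lines show how far these ligands differ at the site they have in common, which bears on how well reads can be told apart.

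Ccl2: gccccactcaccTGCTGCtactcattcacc
Ccl7: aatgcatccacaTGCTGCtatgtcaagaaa
Ccl12: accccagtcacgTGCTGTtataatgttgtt
Ccl8: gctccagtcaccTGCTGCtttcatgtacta
Ccl4: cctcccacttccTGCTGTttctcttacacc
Ccl5: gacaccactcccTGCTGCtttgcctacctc

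In this order they lie at chr11:82036494-82036523, chr11:82046526-82046555, chr11:82102622-82102651, chr11:82116044-82116073, chr11:83663470-83663499 and chr11:83529230-83529259. Aligned in pairs, the coding sequences of the ligands were identical at between 59.2% (Ccl3 and Ccl7) and 70.7% of the aligned bases (Ccl3 and Ccl4, and likewise Ccl8 and Ccl12). None of the 31-base words in the exons of Ccl2, Ccl3, Ccl4, Ccl7, Ccl8 and Ccl12 occurred in the exons of another gene. The share of such words was 0.539% for Ccl5, 0.642% for Ccr1 (shared with Ccr3 and Ccr1l1) and 3.48% for Ccr2, which shared words with many genes outside the family. Ccl2 overlaps Gm17268 on the opposite strand, and whether the counting used strand is not given in the sources used here.

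RefSeq promoter windows (GRCm38.p6) were at hand for Ccl3, Ccl8, Ccl12, Ccr1 and Ccr2. Those of Ccl12 and Ccl8 are printed because the 2 genes are neighbors with similar coding sequences. Of the 2, only Ccl12 was called against PBS after 1 dose of an agonist, and a difference between them was not tested. Each line gives the 250 bases before the start, with TATAAA in capitals.

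Ccl12: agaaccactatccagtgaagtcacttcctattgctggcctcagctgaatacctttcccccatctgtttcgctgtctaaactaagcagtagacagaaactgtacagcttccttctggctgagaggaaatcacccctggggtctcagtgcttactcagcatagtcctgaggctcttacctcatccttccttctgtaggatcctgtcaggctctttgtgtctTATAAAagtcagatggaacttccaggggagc
Ccl8: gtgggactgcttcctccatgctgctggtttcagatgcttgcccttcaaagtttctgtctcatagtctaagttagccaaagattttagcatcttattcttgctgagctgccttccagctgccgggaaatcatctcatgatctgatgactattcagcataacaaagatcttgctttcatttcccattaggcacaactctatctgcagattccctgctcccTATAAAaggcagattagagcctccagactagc

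They lie at chr11:82101595-82101844 (plus) and chr11:82114935-82115184 (plus). TATAAA begins 31 bases before the start of Ccl12 and 32 before that of Ccl8. Of 27025 genes with promoter windows of the same length, 14.3% had it on either strand in any of their windows. The core of the interferon-stimulated response element, which is GAAA, 2 bases of any kind and GAAA, was found for 3.46% of these genes, TTCNNNGAA, the core of the interferon gamma-activated site, for 8.13%, and the NF-κB consensus for 5.67%. None of the 5 windows at hand held a match to these 3 motifs on either strand.

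The total of expected counts per tumor lay between 21608895 and 65983630, and 17110 genes were tested. Levels are given as CPM, counts scaled to a common library size by edgeR's TMM method. A call required an adjusted p under 0.05 (edgeR's quasi-likelihood test, Benjamini-Hochberg over all genes tested) and a ratio over 2, and fold changes are on the log2 scale with the standard error of the fit. The share of all tested genes called in the same comparison is given beside each count of members called, and the median log2 fold change over all tested genes was between -0.04 and 0.06 in every comparison. The spread was estimated over all 18 tumors together, because 0.333 is the smallest two-sided p that an exact permutation test of 2 tumors against 2 allows. The tumors given 2 doses of CDN2 (20 µg) stood apart. Replicate 1 had the lowest depth of all, and the share of tested genes over 2-fold apart in this pair was 27.4%, against 4.02% to 12.2% in the other groups. Results that rest on these tumors are therefore also given without replicate 1.

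After 1 dose, 6 of the 9 genes rose with each of the 3 STING agonist treatments, namely Ccl2, Ccl3, Ccl4, Ccl5, Ccl7 and Ccl12. For CDN2 (20 µg) 6 were higher and 0 lower, where 3.26% of all genes were called, 2.32% higher and 0.935% lower. For exoCDN2 6 were higher and 0 lower, against 2.81% of all genes called, 2.29% higher and 0.514% lower. For CDN2 (100 µg) 6 were higher and 1 lower, against 2.5%, with 1.88% higher and 0.614% lower. The median log2 fold change of the 9 genes against PBS was 2.67, 3.11 and 3.05, for CDN2 (20 µg), exoCDN2 and CDN2 (100 µg). The 3 treatments share their 2 PBS tumors, so their calls are not independent of each other. Ccl8 and Ccr1 passed in none of the 3 comparisons.

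Ccl2 was at 12.5 and 11.7 CPM in the PBS tumors, 132 and 104 after exoCDN2, 65.4 and 97.8 after CDN2 (20 µg), and 137 and 122 after CDN2 (100 µg). All tumors given the agonist were thus above both PBS tumors, and the log2 fold changes were 3.29 ± 0.45 (adjusted p = 8.0e-04), 2.75 ± 0.44 (adjusted p = 0.0026) and 3.42 ± 0.46 (adjusted p = 8.1e-04). Ccl7 was lower in level and moved alongside it. It was at 8.75 and 9.21 CPM after PBS, 86.8 and 68.7 after exoCDN2, 43.9 and 70.5 after CDN2 (20 µg), and 74.7 and 74.1 after CDN2 (100 µg). Its log2 fold changes were 3.11 ± 0.38, 2.67 ± 0.37 and 3.05 ± 0.37, with adjusted p-values of 2.7e-04, 8.3e-04 and 4.3e-04. Ccl12, the third CCR2 ligand, was scarce in PBS tumors at 1.62 and 1.84 CPM. It reached 9.24 and 9.18 CPM after exoCDN2, 6.1 and 9.56 after CDN2 (20 µg), and 9.3 and 8.93 after CDN2 (100 µg), a log2 fold change of 2.17 ± 0.43 to 2.41 ± 0.44 (largest adjusted p = 0.011).

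Ccl8, printed beside Ccl12 above, was not called. Its level was 11.5 and 21.3 CPM after PBS, 20.1 and 18.2 after exoCDN2, 19.5 and 31.1 after CDN2 (20 µg), and 25.5 and 26.8 after CDN2 (100 µg). The PBS tumors overlapped with those given exoCDN2 and CDN2 (20 µg) and lay below those given CDN2 (100 µg), and the adjusted p-values were 0.93, 0.75 and 0.78. With a standard error of 0.62 on the log2 scale, a 2-fold change of this gene could not have been told from none. Per kilobase of exon, Ccl8 was the most abundant of the 9 in PBS tumors, at a mean of 32.1 CPM per kb after 1 dose, against 11.2 for Ccl7 and 10.6 for Ccl2.

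Ccl3, Ccl4 and Ccl5 had larger fold changes than Ccl2, Ccl7 and Ccl12. Ccl3 rose from 2.12 and 2.6 CPM in the PBS tumors to 35.8 and 27.6 after exoCDN2 (log2 fold change 3.74 ± 0.75, adjusted p = 0.012), 17.2 and 44.4 after CDN2 (20 µg) (3.70 ± 0.75, adjusted p = 0.011), and 26.4 and 32.7 after CDN2 (100 µg) (3.64 ± 0.75, adjusted p = 0.017). Ccl4 rose from 2.47 and 2.46 CPM to 73.4 and 63 after exoCDN2, 34.4 and 98.8 after CDN2 (20 µg), and 59.6 and 71.3 after CDN2 (100 µg). For both genes the 2 tumors given CDN2 (20 µg) were farther apart than those given PBS, exoCDN2 or CDN2 (100 µg). The log2 fold changes of Ccl4 were 4.79 ± 0.88, 4.75 ± 0.88 and 4.73 ± 0.88, with adjusted p-values of 0.0065, 0.0067 and 0.0092. Ccl5 was at 4.2 and 4.75 CPM after PBS, 97.2 and 83.5 after exoCDN2, 136 and 209 after CDN2 (20 µg), and 140 and 118 after CDN2 (100 µg). Its log2 fold changes of 4.33 ± 0.38, 5.27 ± 0.40 and 4.85 ± 0.39 had the smallest adjusted p-values of the 9 genes (1.9e-05, 6.7e-06 and 1.5e-05).

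The receptors did not follow the ligands. Ccr1 was at 4.44 and 3.66 CPM after PBS, 3.3 and 4.4 after CDN2 (20 µg) and 3.61 and 5.04 after CDN2 (100 µg), so these groups overlapped. After exoCDN2 it was at 9.08 and 8.53 CPM, above both PBS tumors, with a log2 fold change of 1.12 ± 0.50 that did not pass (adjusted p = 0.32). Ccr1 was called higher there without the filter and in the fit of only these groups. Ccr2 was at 6.39 and 10.7 CPM after PBS, 4.84 and 3.2 after exoCDN2, 1.86 and 2.83 after CDN2 (20 µg), and 0.928 and 1.26 after CDN2 (100 µg). The tumors given the agonist were all below PBS and the groups did not overlap with it or with each other. Ccr2 was called lower with CDN2 (100 µg), with a log2 fold change of -2.97 ± 0.54 (adjusted p = 0.0082), while the values were -1.87 ± 0.51 for CDN2 (20 µg) (adjusted p = 0.06) and -1.09 ± 0.49 for exoCDN2 (adjusted p = 0.32). It was also called lower with CDN2 (20 µg) by DESeq2, without the filter, in the fit of only these groups and with pooled PBS, and with exoCDN2 without the filter and in the fit of only these groups. The call with CDN2 (100 µg) was lost without either of its tumors and without PBS replicate 2. Between CDN2 (100 µg) and CDN2 (20 µg) it did not differ beyond the test's threshold (adjusted p = 0.39).

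**Figure D1:**
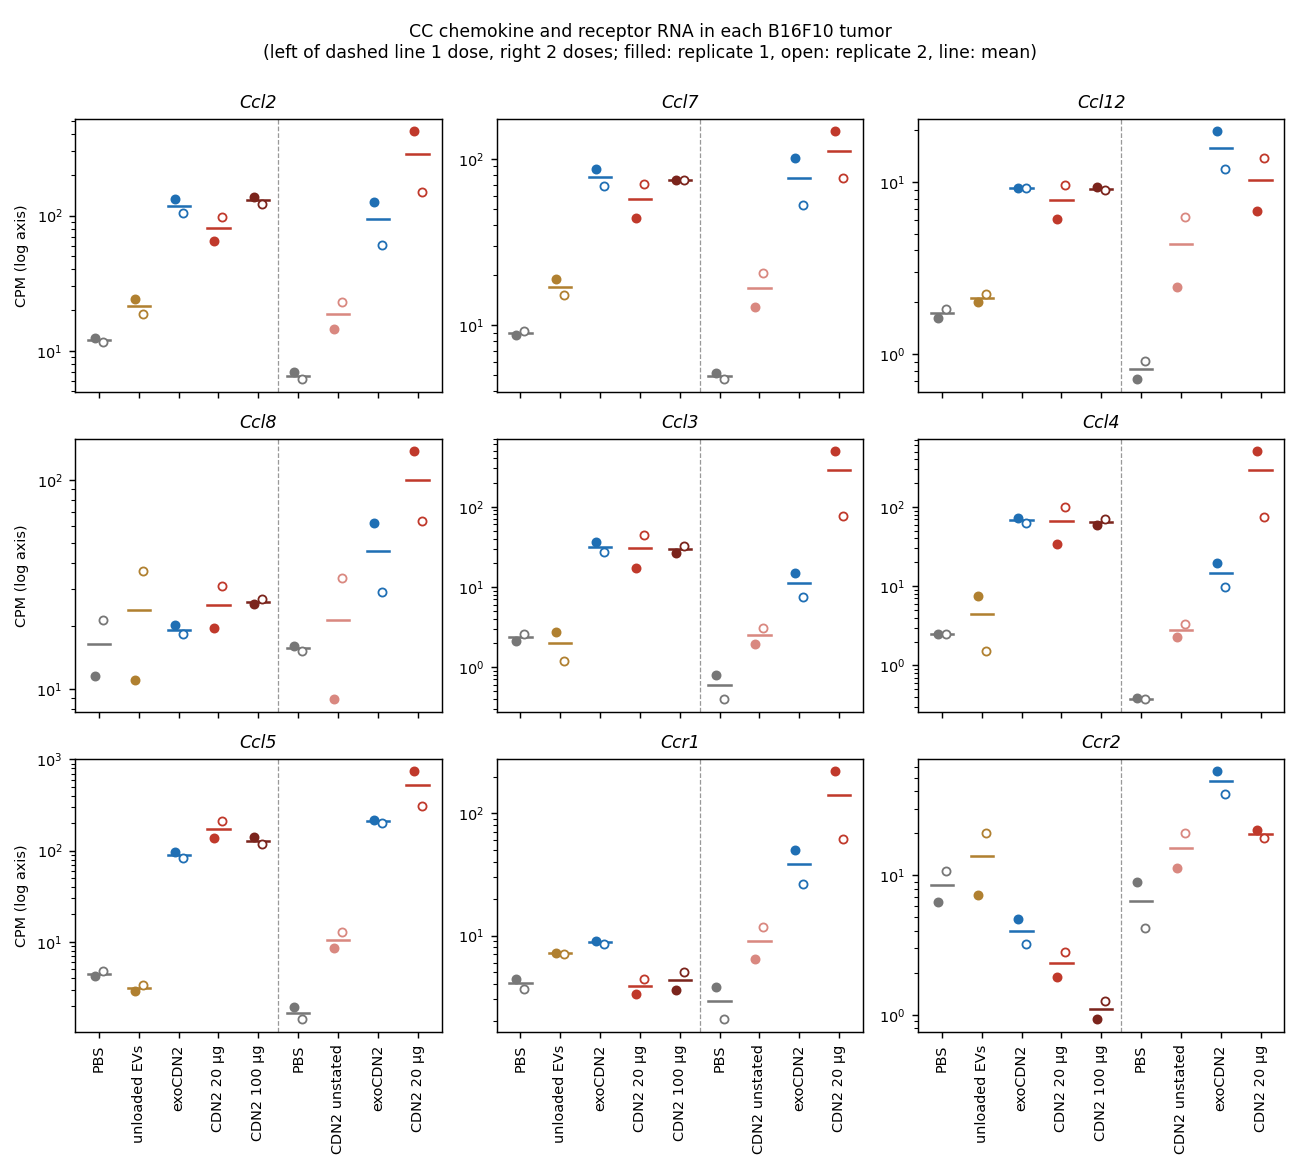
Level of each gene in CPM on a log axis in each of the 18 tumors, with groups after 1 dose left of the dashed line and after 2 doses right of it. Filled circles are replicate 1, open circles replicate 2 and lines the mean of the 2, and the highest Ccr2 values, 55.7 and 38.4 CPM, are in the tumors given 2 doses of exoCDN2.

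These first-dose counts depended on the PBS tumors. Without PBS replicate 2, 2 members were called for CDN2 (20 µg) and 3 each for CDN2 (100 µg) and exoCDN2, and without PBS replicate 1 the counts were 3, 4 and 3. Leaving out replicate 2 of CDN2 (20 µg) left 3 members called there. Ccl5 and Ccl7 were called in each of the 12 fits of these 3 comparisons that leave out 1 tumor.

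Unloaded EVs were the control for the vesicles. Of the 9 genes, 0 were called against PBS by edgeR and 0 by DESeq2, and 1 had an unadjusted p under 0.05, as did 3.01% of all genes. Over all genes edgeR called 0% and DESeq2 35 genes. The gene with the unadjusted p under 0.05 was Ccl7, at 18.9 and 15.2 CPM after unloaded EVs against 8.75 and 9.21 after PBS (log2 fold change 0.93 ± 0.35, adjusted p = 1). Ccl2 was at 24.2 and 18.7 CPM, also above both PBS tumors. The 2 tumors given unloaded EVs were far apart for Ccl4 (7.45 and 1.5 CPM), Ccl8 (11 and 36.8 CPM) and Ccr2 (7.24 and 20.2 CPM), so that the standard errors reached 0.80 and changes near 2-fold could not have been called.

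Against unloaded EVs, exoCDN2 again raised 6 of the 9 genes and lowered 0, where 2.92% of all genes were called, 2.51% higher and 0.403% lower. They were the same ligands as against PBS, Ccl2, Ccl3, Ccl4, Ccl5, Ccl7 and Ccl12, and the exoCDN2 tumors are shared by both comparisons. Ccl5 had a log2 fold change of 4.85 ± 0.40 (adjusted p = 5.7e-06), as unloaded EVs left it at 2.87 and 3.4 CPM. Ccl3 was at 2.77 and 1.2 CPM after unloaded EVs (log2 fold change 3.99 ± 0.76, adjusted p = 0.0083). Ccr2 was lower in both exoCDN2 tumors, at -1.77 ± 0.49 (adjusted p = 0.074), and it was called lower by DESeq2, without the filter and without replicate 1 of the unloaded EVs. Without replicate 2 of the unloaded EVs, only Ccl5 was still called.

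Both forms of the agonist were then compared after 1 dose, at amounts that differed, 0.1 µg in EVs and 20 µg free. Of the 9 genes, 0 differed by edgeR and 0 by DESeq2, with 2 at an unadjusted p under 0.05, as were 16.5% of all genes, and 0.24% of all genes were called, 0.117% higher and 0.123% lower. The differences, exoCDN2 over CDN2, ranged from -0.93 (Ccl5) to 1.20 (Ccr1) on the log2 scale with standard errors of 0.33 to 0.73. These errors leave room for differences of 2-fold and more, and they were largest for Ccl3, Ccl4 and Ccl8. Ccl5 was lower in both exoCDN2 tumors (97.2 and 83.5 against 136 and 209 CPM, -0.93 ± 0.33, adjusted p = 0.2). Ccr1 was higher in both (9.08 and 8.53 against 3.3 and 4.4 CPM, 1.20 ± 0.51, adjusted p = 0.26), and it was called in the fit of only the 2 groups. CDN2 (100 µg) against CDN2 (20 µg) gave 0 called members with edgeR and 0 with DESeq2, and 0 at an unadjusted p under 0.05 (13.9% of all genes were), where 0.491% of all genes were called, 0.263% higher and 0.228% lower.

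**Figure D2:**
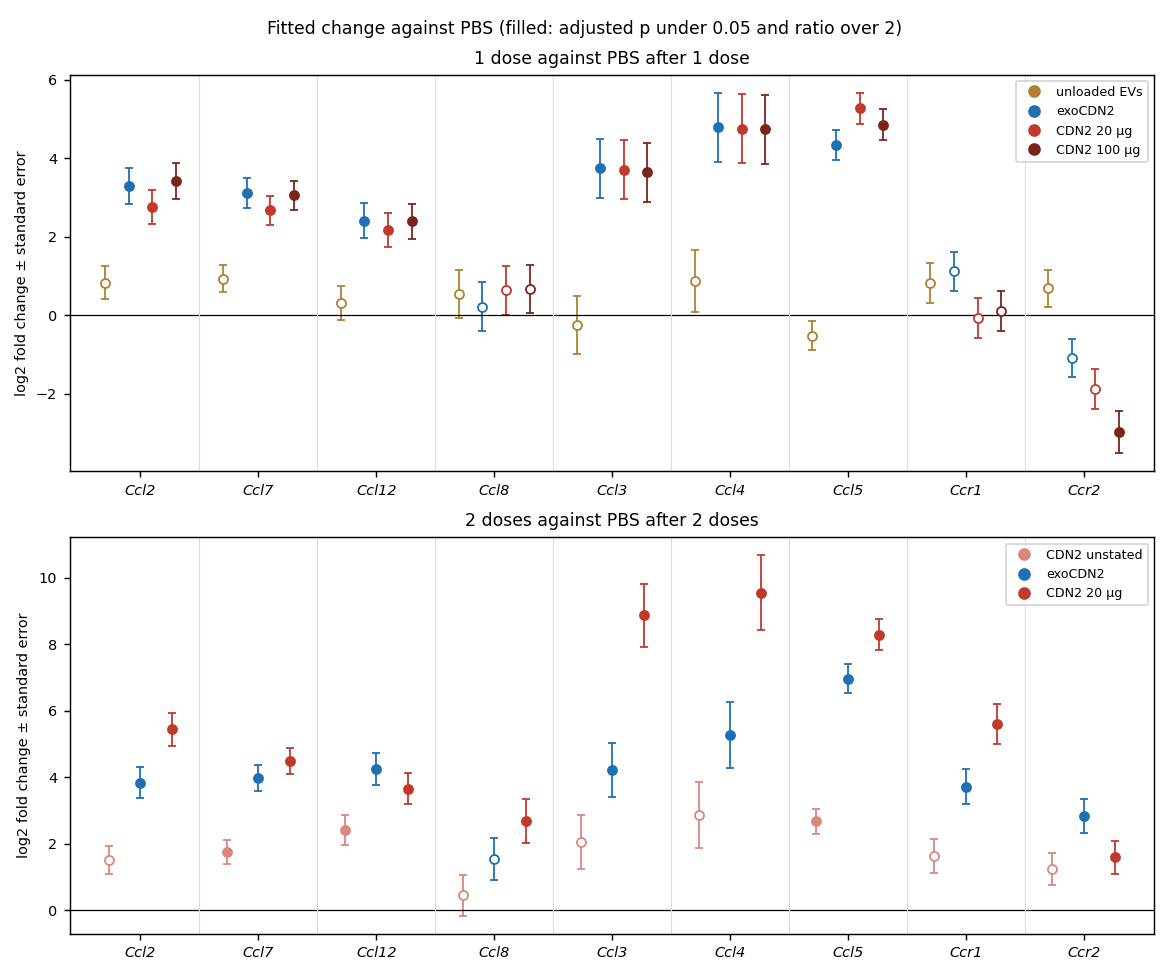
Log2 fold change of each gene against PBS after the same number of doses, with the standard error of the fit as bars. Filled circles passed the adjusted p and the ratio, and the 6 ligands that rose after 1 dose lie between 2.17 and 5.27 while Ccl8 and the receptors lie lower.

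The PBS tumors themselves were lower after 2 doses than after 1 for most ligands. Of the 9 genes, 0 were called by edgeR and 1 by DESeq2, while 5 had an unadjusted p under 0.05, as did 9.14% of all genes. Of all genes edgeR called 1.27%, 0.0468% higher and 1.22% lower. Ccl4 was at 0.388 and 0.372 CPM after 2 doses of PBS against 2.47 and 2.46 after 1 (log2 fold change -2.69 ± 0.99, adjusted p = 0.35). Ccl5 was at 1.92 and 1.42 CPM against 4.2 and 4.75 (-1.42 ± 0.37, adjusted p = 0.11), and it was the gene DESeq2 called. A fold change against PBS after 2 doses therefore starts from a lower base than one after 1 dose.

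After 2 doses of CDN2 (20 µg), all 9 genes rose against PBS, where 30.4% of all genes were called, 19.9% higher and 10.5% lower. The median log2 fold change of the 9 was 5.44. Ccl3 was at 491 and 77.3 CPM against 0.796 and 0.394 after PBS (log2 fold change 8.88 ± 0.95, adjusted p = 1.9e-05), and Ccl4 at 504 and 74 against 0.388 and 0.372 (9.56 ± 1.12, adjusted p = 3.6e-05). Replicate 1 thus held over 6 times as much of both as replicate 2, and both tumors were far above PBS. Ccl5 was at 741 and 306 CPM (8.29 ± 0.46, adjusted p = 1.2e-07), Ccl2 at 420 and 150 against 6.96 and 6.13 after PBS (5.44 ± 0.50, adjusted p = 6.2e-06), and Ccr1 at 221 and 62.1 against 3.76 and 2.06 (5.60 ± 0.59, adjusted p = 1.6e-05). Ccl7 was at 146 and 76.6 CPM against 5.14 and 4.71 (4.49 ± 0.40). Ccl8 rose here, to 137 and 63.7 CPM against 16 and 15.2 after PBS (2.68 ± 0.65, adjusted p = 0.0047). Ccl12 and Ccr2 did not share the high value of replicate 1, with 6.78 and 13.7 CPM for Ccl12 and 21.3 and 18.5 CPM for Ccr2. Without replicate 1, 8 members were called and Ccr2 was not (1.48, adjusted p = 0.062). The log2 fold changes of those 8 were then between 2.02 (Ccl8) and 7.58 (Ccl4), with 4.40 for Ccr1, 3.95 for Ccl7 and 4.06 for Ccl12.

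After 2 doses of exoCDN2, 8 of the 9 genes rose against PBS and 0 fell, where 11.2% of all genes were called, 8.83% higher and 2.34% lower. The median log2 fold change was 3.97. Ccl5 had the largest change, from 1.92 and 1.42 CPM after PBS to 217 and 203 (6.97 ± 0.44, adjusted p = 4.4e-07), and its 2 tumors were close to each other. Ccl12 reached 19.6 and 11.8 CPM from 0.714 and 0.919 (4.26 ± 0.48, adjusted p = 4.3e-05). Ccl2 was at 127 and 60.6 CPM (3.84 ± 0.47, adjusted p = 9.2e-05) and Ccl7 at 101 and 52.6 (3.97 ± 0.39, adjusted p = 1.3e-05). Ccl3 reached 14.8 and 7.41 CPM (4.21 ± 0.82, adjusted p = 0.0031) and Ccl4 19.9 and 9.68 (5.27 ± 0.99, adjusted p = 0.0023), both below the level they had after the first dose.

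Both receptors rose after 2 doses of exoCDN2. Ccr1 was at 50.5 and 26.4 CPM against 3.76 and 2.06 after PBS (3.72 ± 0.54, adjusted p = 3.7e-04), and Ccr2 at 55.7 and 38.4 against 8.96 and 4.2 (2.83 ± 0.50, adjusted p = 0.0016). Of the 9 groups, Ccr2 was highest here, at a mean of 47 CPM, followed by CDN2 (20 µg) after 2 doses at 19.9 and the unstated amount at 15.7. The latter overlapped each other, with 21.3 and 18.5 against 11.3 and 20.2 CPM, and neither reached the lower exoCDN2 tumor. Ccl8 was the member that did not pass, at 62.1 and 29 CPM against 16 and 15.2 (1.55 ± 0.63, adjusted p = 0.12), although its groups did not overlap. It was called higher without the filter and in the fit of only these groups. Replicate 2 was below replicate 1 for all 9 genes in this group.

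The direct comparison after 2 doses, again of 0.1 µg in EVs with 20 µg free, found 5 of the 9 genes lower with exoCDN2 and 0 higher, where 19.2% of all genes were called, 7.35% higher and 11.8% lower. Ccl3 differed by -4.68 ± 0.76 on the log2 scale (adjusted p = 0.0028) and Ccl4 by -4.29 ± 0.84 (adjusted p = 0.0048), with exoCDN2 the lower in both. The differences were smaller for Ccr1 (-1.88 ± 0.49, adjusted p = 0.014), Ccl2 (-1.60 ± 0.42, adjusted p = 0.014) and Ccl5 (-1.32 ± 0.33, adjusted p = 0.012). Ccr2 was 1.24 ± 0.48 higher with exoCDN2 but did not pass (adjusted p = 0.058), though DESeq2 called it. Ccl7 and Ccl12 overlapped between the groups. Much of this rested on replicate 1 of CDN2 (20 µg). Without it only Ccl3 was still called, at -2.81 (adjusted p = 0.018), while Ccl4 was at -2.33 (adjusted p = 0.054), Ccl2 at -0.68, Ccl5 at -0.55, Ccr1 at -0.70 and Ccr2 at 1.34 (adjusted p = 0.18). Without replicate 2 of exoCDN2 the count was also 1, and in a fit of only these 4 tumors it was 0.

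**Figure D3:**
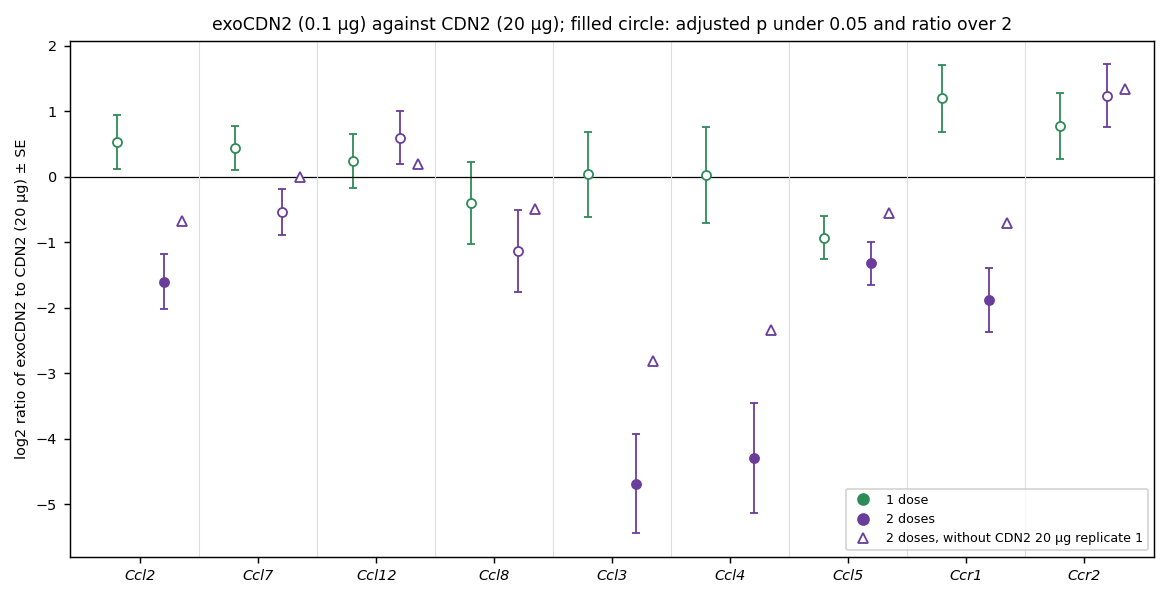
Log2 ratio of exoCDN2 (0.1 µg) to CDN2 (20 µg) for each gene after 1 and after 2 doses, with the standard error as bars, filled where called, and triangles for 2 doses without replicate 1 of CDN2 (20 µg). After 1 dose the values lie between -0.93 and 1.20, and after 2 doses Ccl3 and Ccl4 are lowest at -4.68 and -4.29, or -2.81 and -2.33 without that tumor.

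Set against 1 dose of the same treatment, both receptors were higher after 2 doses of CDN2 (20 µg) and of exoCDN2. Tumors given 2 doses were collected 3 days later after their first dose than tumors given 1. In every comparison of 2 doses with 1, dose number and time since the first dose cannot be told apart. With CDN2 (20 µg), Ccr1 went from 3.3 and 4.4 to 221 and 62.1 CPM (log2 fold change 5.20 ± 0.58, adjusted p = 2.0e-04) and Ccr2 from 1.86 and 2.83 to 21.3 and 18.5 (3.09 ± 0.52, adjusted p = 0.0011). With exoCDN2, Ccr1 went from 9.08 and 8.53 to 50.5 and 26.4 CPM (2.13 ± 0.50, adjusted p = 0.016) and Ccr2 from 4.84 and 3.2 to 55.7 and 38.4 (3.55 ± 0.52, adjusted p = 0.0015). In all, 7 of the 9 genes rose with CDN2 (20 µg), where 20.5% of all genes were called, 14.2% higher and 6.35% lower. With exoCDN2 3 rose, Ccl5, Ccr1 and Ccr2, where 7.32% were called, 5.06% higher and 2.27% lower. Ccl3 and Ccl4 were higher after the second dose of CDN2 (3.20 ± 0.71, adjusted p = 0.0047, and 2.12 ± 0.76, adjusted p = 0.048), but the Ccl4 values of the 2 groups overlapped. Without replicate 1 after 2 doses the log2 fold changes were only 1.32 and 0.14. With exoCDN2, Ccl3 and Ccl4 were lower in both tumors after the second dose than in both after the first, without passing (-1.51 ± 0.67, adjusted p = 0.18, and -2.20 ± 0.77, adjusted p = 0.087). Both were called lower without the filter and in the fit of only these groups. Leaving out replicate 1 of CDN2 (20 µg) after 2 doses, or its replicate 1 after 1 dose, left the receptors as the 2 called members of that comparison. With exoCDN2, Ccr2 alone was called without either of its first-dose tumors or without replicate 1 after 2 doses.

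Whether a treatment's difference changed from 1 dose to 2 was tested directly. The difference of exoCDN2 from CDN2 (20 µg) was lower after 2 doses for 4 members, Ccl2, Ccl3, Ccl4 and Ccr1, where 6.66% of all genes were called, 2.43% higher and 4.23% lower. The difference of CDN2 (20 µg) from PBS was higher after 2 doses for 7 members, all but Ccl8 and Ccl12, where 15.7% of all genes were called, 10.9% higher and 4.74% lower. That of exoCDN2 from PBS was higher for Ccl5, Ccr1 and Ccr2, where 6.69% were called, 5.15% higher and 1.54% lower. Ccr1 and Ccr2, neither of which was called after 1 dose of CDN2 (20 µg), had changes of 5.68 ± 0.75 (adjusted p = 8.8e-04) and 3.47 ± 0.70 (adjusted p = 0.0058) in their difference from PBS. For exoCDN2 the same changes were 2.60 ± 0.71 (adjusted p = 0.042) and 3.92 ± 0.69 (adjusted p = 0.0038). Those against PBS include the lower PBS levels after 2 doses. The 4 calls between exoCDN2 and CDN2 were all lost without replicate 1 of CDN2 (20 µg) after 1 dose or after 2, without replicate 1 of exoCDN2 after 1 dose, or without its replicate 2 after 2 doses, and 1 call was left without its replicate 2 after 1 dose and 2 without its replicate 1 after 2 doses. The 7 calls for CDN2 against PBS became 4 without replicate 1 of CDN2 (20 µg) after 1 dose. They became 5, with Ccl4 and Ccl7 lost, without its replicate 1 after 2 doses, without either PBS tumor after 2 doses, or without PBS replicate 2 after 1 dose. Without replicate 1 after 2 doses the changes were 4.47 for Ccr1 and 3.34 for Ccr2. Of the 3 calls for exoCDN2 against PBS, that of Ccr1 was lost in 7 of the 8 fits that leave out 1 tumor, and those of Ccl5 and Ccr2 stood in all 8.

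The tumors given 2 doses of CDN2 at the unstated amount had lower levels of all 9 members than at least 1 of the tumors given 2 doses of CDN2 (20 µg). Against PBS after 2 doses, 3 of the 9 rose and 0 fell, where 0.959% of all genes were called, 0.918% higher and 0.0409% lower. Ccl5 was at 8.48 and 12.8 CPM (2.67 ± 0.38, adjusted p = 0.0019), Ccl7 at 12.8 and 20.5 (1.75 ± 0.36, adjusted p = 0.035) and Ccl12 at 2.44 and 6.29 (2.41 ± 0.46, adjusted p = 0.018). Ccl3 was at 1.91 and 3.09 CPM and Ccl4 at 2.25 and 3.33, close to their PBS level after 1 dose. With the PBS tumors of both dose numbers pooled, 0 members were called, and DESeq2 called 5. Without PBS replicate 2 the count was 0, and without PBS replicate 1 or replicate 2 of the treated group it was 1.

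Marker genes of the cell types in the tumors moved in the same samples, and their part in the results above was not tested. The neutrophil list (7 genes, S100a8 and Csf3r among them) summed to 960 and 219 CPM after 2 doses of CDN2 (20 µg), 72.2 and 23.6 after 2 doses of exoCDN2, and 2.39 and 1.62 after 2 doses of PBS. All 7 rose with CDN2 and 6 with exoCDN2, and 6 were lower with exoCDN2 than with CDN2, where 30.4%, 11.2% and 19.2% of all genes were called. Without replicate 1 of CDN2 (20 µg) all 7 were still called against PBS, and 1 was lower with exoCDN2. Ly6g, a defining neutrophil marker, was at or under 3 counts in both tumors given 2 doses of exoCDN2 and in both given 2 doses of PBS. The neutrophil sum was highest in replicate 1 of CDN2 (20 µg) after 2 doses. This tumor also held the most RNA of every member but Ccl12 and Ccr2. Its monocyte and macrophage, fibroblast and skeletal muscle sums were the highest too. After 1 dose the neutrophil sum was 67.2 and 40.8 CPM with exoCDN2, 14.6 and 34.1 with CDN2 (20 µg) and 5.1 and 5.27 with PBS.

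The monocyte and macrophage list (12 genes) is set beside the same shares of all genes, 30.4% for CDN2 and 11.2% for exoCDN2. It summed to 1445 and 692 CPM after 2 doses of CDN2 (20 µg) and 961 and 640 after 2 doses of exoCDN2, against 285 and 233 after PBS. Of its genes, 9 rose and 1 fell with CDN2, or 8 and 0 without replicate 1, and 8 rose with exoCDN2. After 1 dose, 0 of the 12 were called with exoCDN2, CDN2 (20 µg) or CDN2 (100 µg), with 3, 1 and 2 at an unadjusted p under 0.05, where 14.4%, 14% and 14% of all genes were. The sum of this list was 348 and 377 CPM in the CDN2 (100 µg) tumors, within the range of the PBS tumors after 1 dose (336 and 441). The T and NK cell list (9 genes) summed to 68.6 and 46.8 CPM after 2 doses of exoCDN2, 15 and 23.7 after CDN2 (20 µg) and 2.82 and 1.44 after PBS. Against PBS, 8 of the 9 rose with exoCDN2 and 7 with CDN2 (20 µg), where 11.2% and 30.4% of all genes were called. The count with CDN2 did not fall without replicate 1. In the direct comparison 3 were higher with exoCDN2, where 19.2% of all genes were called. Those calls were lost without replicate 1 of CDN2 (20 µg). The PBS sum was lower after 2 doses than after 1, with 2 of the 9 called lower, where 1.22% of all genes were. After 1 dose of CDN2 (100 µg) the list was at 1.37 and 1.9 CPM against 10 and 13.1 after PBS, and 4 of the 9 fell, where 0.614% of all genes were called lower.

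Markers of other tissue differed as well. The endothelial list (5 genes) was at 55.4 and 57.6 CPM after 1 dose of CDN2 (20 µg) against 121 and 125 after PBS, with 3 of the 5 called lower, where 0.935% of all genes were. It was at 129 and 116 CPM after exoCDN2 and 112 and 137 after CDN2 (100 µg). The keratinocyte list (5 genes) was at 115 and 62.7 CPM in the PBS tumors after 1 dose, at most 5.48 in the tumors given 1 dose of an agonist, and 0.51 and 0.0438 after 2 doses of PBS, with 0 of the 5 called by edgeR in these comparisons and 1 to 3 at an unadjusted p under 0.05. The skeletal muscle list (5 genes) summed to 3580 and 1827 CPM after 2 doses of CDN2 (20 µg) and to between 3.77 and 491 CPM in the 16 other tumors. The fibroblast list (6 genes) was highest in replicate 1 of the same group, at 1823 CPM against 856 in replicate 2 and 352 and 352 after PBS. The melanoma list (7 genes, Pmel, Mlana and Tyr among them) was at 7409 and 12884 CPM there, 15066 and 16212 after 2 doses of exoCDN2, and 19913 to 25110 in the other 14 tumors. All 7 melanoma markers were above 3 counts in every group, as the label B16F10 has it.

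**Figure D4:**
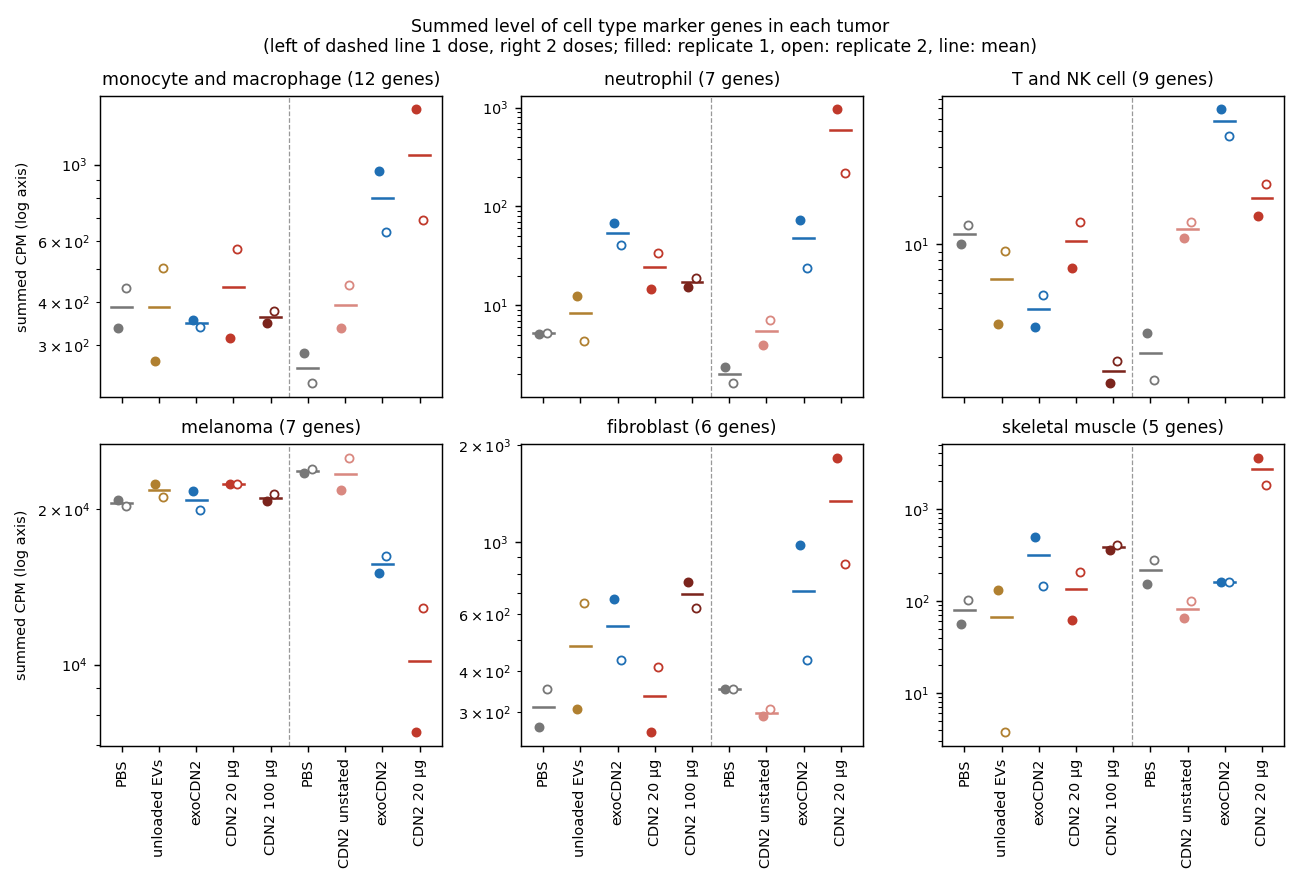
Summed CPM of the markers of 6 cell types in each tumor, on a log axis, with replicate 1 filled, replicate 2 open and the mean as a line. The tumors given 2 doses of CDN2 (20 µg) hold the most neutrophil (960 and 219 CPM) and skeletal muscle RNA and the least melanoma RNA, and those given 2 doses of exoCDN2 the most T and NK cell RNA.

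Of 26 other genes of the CC system (ligands, receptors and atypical receptors), 20 were tested. After 1 dose, 4 of them rose with exoCDN2, 2 with CDN2 (20 µg) and 2 with CDN2 (100 µg), and 0 fell, where 2.81%, 3.26% and 2.5% of all genes were called. Ccrl2, an atypical receptor that binds chemerin, was the gene among them with the smallest p in all 3. It was at 3.3 and 4.22 CPM after PBS, 77.5 and 82.3 after exoCDN2, 132 and 249 after CDN2 (20 µg), and 75 and 84.2 after CDN2 (100 µg), and its log2 fold changes were 4.41 ± 0.59, 5.66 ± 0.62 and 4.40 ± 0.59 (largest adjusted p = 8.3e-04). Ccr7, which guides dendritic cells to lymph nodes, rose with exoCDN2 to 10.3 and 10.8 CPM from 1.12 and 2.02 (2.75 ± 0.42, adjusted p = 0.0018). Ccr7 was also above both PBS tumors after CDN2 (20 µg) (3.27 and 6.4 CPM) and CDN2 (100 µg) (2.54 and 4.45 CPM). Unloaded EVs left Ccr7 at 2.42 and 4.05 CPM, likewise above both. Of the 5 other CC receptors tested, 1 was called higher with exoCDN2, 1 with CDN2 (20 µg) and 0 with CDN2 (100 µg). Ccl22, a ligand of CCR4, was at 5.61 and 6.39 CPM after exoCDN2 against 1.4 and 1.74 (1.93 ± 0.33, adjusted p = 0.0042). After unloaded EVs Ccl22 was at 4.56 and 6.67 CPM, also above both PBS tumors and overlapping exoCDN2. It was the 1 gene of the 20 that differed between exoCDN2 and CDN2 (20 µg) after 1 dose (2.21 ± 0.34, adjusted p = 0.043), where 0.24% of all genes were called. For unloaded EVs against PBS, 0 of the 11 other CC ligands tested were called. Of these ligands 6 had an unadjusted p under 0.05, as did 3.01% of all genes.

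After 2 doses, 30.4% of all genes were called with CDN2 (20 µg) and 11.2% with exoCDN2 against PBS, and 19.2% in the direct comparison. Of the 20 genes, 8 rose with CDN2 (20 µg) and 0 fell, while 4 rose and 1 fell with exoCDN2. Without replicate 1 of CDN2 (20 µg), 5 rose with CDN2. Ccl11 (eotaxin, a ligand of CCR3) was at 47.5 and 15.6 CPM after exoCDN2 and 60.2 and 30.6 after CDN2, against 1.8 and 0.985 (4.49 ± 0.57 and 5.02 ± 0.58, largest adjusted p = 1.3e-04). Ccl22 fell with exoCDN2 to 0.584 and 0.592 CPM from 1.1 and 1.53 (-1.16 ± 0.35, adjusted p = 0.037). In the direct comparison 6 of the 20 were lower with exoCDN2 and 1 was higher, or 1 and 0 without replicate 1 of CDN2 (20 µg). Ccrl2 (-3.03 ± 0.54, adjusted p = 0.0037), Ccl6 (-2.76 ± 0.66, adjusted p = 0.0099) and Ccl9 (-1.64 ± 0.41, adjusted p = 0.011) were the lower ones with the smallest p, and Ackr4 was higher at 0.721 and 0.197 CPM against 0 and 0.106.

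The genes whose profile over the 18 tumors was most like that of each member were found by the root mean square difference of log2 CPM after each gene was centered on its own mean. Ccl2 and Ccl7 were each other's nearest gene among all tested, at 0.327, and Ccl3 and Ccl4 likewise at 0.614, so that 2 neighboring genes in each cluster had the closest profiles. Ifi205 (0.344) was next to Ccl2 and Casp4 (0.361) next to Ccl7, and Ccrl2 (0.646) was next to Ccl4. Ccl5 had Ifi208 (0.763), Cxcl11 (0.783) and Ifit1bl2 (0.841) nearest. Ccl12 had Oas1g (0.428), Herc6 (0.475) and Oas1a (0.482) nearest. Ccl8 stood with Tppp3 (0.328), Loxl1 (0.34) and Metrnl (0.396), and the SD of its own log2 CPM over the tumors was the lowest of the 9 at 0.984. Ccr1 had A530064D06Rik (0.409), Ptger2 (0.472) and Tnfrsf23 (0.498) nearest, and Ccr2 had Lfng (0.628), Sash3 (0.685) and Nfam1 (0.692). Among the members, Ccr2 was farthest from Ccl4, at 3.58. These likenesses are descriptions over tumors that share treatment groups.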

How the data were processed

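RNA from 18 whole tumors was sequenced. The authors aligned the reads with OSA in OmicSoft ArraySuite to GRCm38 with an Ensembl annotation and deposited expected counts per gene from RSEM, which is also named in the submitters' processing notes; 8.75% to 12.7% of the values were not whole, and all were rounded here. Gene symbols came from GENCODE for 50376 of the 50600 identifiers.

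All tests came from 1 edgeR 4.0.16 quasi-likelihood fit (R 4.3.3) of the 9 groups, with TMM factors and filterByExpr (minimum count 10, minimum total 15), at 9 residual degrees of freedom. The limits (adjusted p under 0.05, ratio over 2) follow the study, which used DESeq2. The labels do not say that tumors were independent beyond being separate samples. The p-values therefore set a difference against the spread between these samples, estimated over all 9 groups together. Log2 CPM used a prior count of 2. Fold changes are printed where the unadjusted p was under 0.05, and as ranges otherwise.

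Named genes were the 9 members, at most 3 called genes each way per comparison among 26 other CC genes, and the 3 genes with the most similar profile to each member. Some items are not reported here. The members and lists were chosen with earlier results of these data known. Alternatives were DESeq2 1.42.0, RLE factors, no filter, no limit on the ratio, a fit of only the groups compared, a fit of 16 tumors without the unstated amount, pooled PBS, a replicate block and leaving out each tumor. The code was tested on simulated data.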

Additional observations from a re-analysis of the deposited data

Results flagged for a closer look

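A change in a treatment's difference between 1 and 2 doses was found by the interaction term of edgeR's quasi-likelihood fit for 14 pairs of member and comparison, each with an adjusted p under 0.05 (Benjamini-Hochberg over all genes). Of all genes, 6.66% were called for exoCDN2 against CDN2 (20 µg), 15.7% for CDN2 (20 µg) against PBS and 6.69% for exoCDN2 against PBS. Values are the log2 difference after 2 doses minus that after 1 dose. For exoCDN2 against CDN2 (20 µg) they were -4.72 ± 0.97 for Ccl3 (adjusted p = 0.018), -4.32 ± 1.08 for Ccl4 (0.033), -3.07 ± 0.70 for Ccr1 (0.025) and -2.13 ± 0.59 for Ccl2 (0.045). For CDN2 (20 µg) against PBS they were 5.68 ± 0.75 for Ccr1 (8.8e-04), 5.18 ± 1.07 for Ccl3 (0.0065), 4.80 ± 1.24 for Ccl4 (0.019), 3.47 ± 0.70 for Ccr2 (0.0058), 3.02 ± 0.50 for Ccl5 (0.0023), 2.69 ± 0.60 for Ccl2 (0.0096) and 1.82 ± 0.50 for Ccl7 (0.024). For exoCDN2 against PBS they were 3.92 ± 0.69 for Ccr2 (0.0038), 2.64 ± 0.50 for Ccl5 (0.0058) and 2.60 ± 0.71 for Ccr1 (0.042). The 3 sets of values share tumors, and the interactions against PBS include the 4 PBS tumors, in which Ccl3, Ccl4, Ccl5, Ccl7 and Ccl12 were lower after 2 doses at an unadjusted p under 0.05. For exoCDN2 against CDN2 (20 µg), 0 members were called in a fit of only the groups compared. Without replicate 1 of CDN2 (20 µg) after 2 doses, its values were -2.87 for Ccl3, -2.38 for Ccl4, -1.91 for Ccr1 and -1.23 for Ccl2. With 2 tumors a group, no test of single outlying tumors was made.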

How the results depend on the processing

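No called value of the 9 members turned its sign under any alternative run. Of 352 called values recomputed without 1 tumor, 116 were no longer called, as were 16 of 74 in fits of only the groups compared, 3 of 39 with the PBS tumors of both dose numbers pooled, and 1 of 71 in a fit of 16 tumors. DESeq2, edgeR's RLE factors, no filter and no limit on the ratio lost 0. Among the 54 pairs of member and comparison with an unadjusted p of 0.05 or more, 43 of 648 alternative values had the other sign.

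Counts of members called moved as follows. For exoCDN2 against CDN2 after 1 dose (0) there was 1 without a filter and 1 in the fit of only these groups, and for CDN2 (100 µg) against CDN2 (20 µg) (0) there was 1 without a filter. For the unstated amount (3) there were 8 without a filter, 5 with DESeq2, 6 in its own fit and 0 with pooled PBS. For exoCDN2 against CDN2 after 2 doses (5) its own fit gave 0, for CDN2 after 2 doses against 1 (7) it gave 2, and for the change in the difference of exoCDN2 from CDN2 (4) it gave 0. For exoCDN2 after 2 doses against 1 (3) there were 6 without a filter and 5 in its own fit. For PBS after 2 doses against 1 (0) there were 3 without a filter, 1 with DESeq2 and 1 in its own fit. For the change in the difference of exoCDN2 from PBS (3) there were 5 without a filter. Without 1 tumor the counts ranged from 2 to 6 for CDN2 (20 µg) against PBS after 1 dose, 3 to 5 for CDN2 (100 µg), 3 to 6 for exoCDN2, 1 to 6 for exoCDN2 against unloaded EVs, 0 to 3 for the unstated amount, 1 to 6 for exoCDN2 against CDN2 after 2 doses, 2 to 8 for CDN2 after 2 doses against 1, 1 to 2 for exoCDN2 after 2 doses against 1, 0 to 5 for the change between exoCDN2 and CDN2, and 4 to 7 for the change between CDN2 and PBS. A group left with 1 tumor was assumed to vary like the others. The cause of these moves was not tested.

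Over all genes, the count without a filter was 1030 for CDN2 (20 µg) against PBS after 1 dose (557 with it), 1116 for CDN2 (100 µg) (427), 1107 for exoCDN2 (480), 204 for unloaded EVs (0), 1051 for exoCDN2 against unloaded EVs (499), 634 for exoCDN2 against CDN2 after 1 dose (41), 721 for 100 against 20 µg (84), 713 for the unstated amount (164), 727 for PBS after 2 doses against 1 (217), and 2564 and 1922 for the changes of exoCDN2 from CDN2 (1140) and from PBS (1144). DESeq2 gave 643, 35, 320, 360, 359 and 378 for CDN2 (100 µg), unloaded EVs, exoCDN2 against CDN2 after 1 dose, 100 against 20 µg, the unstated amount and PBS, and 1873 for the change of exoCDN2 from CDN2. Fits of only the groups compared gave 1352 for CDN2 (100 µg), 1300 for exoCDN2, 354 for exoCDN2 against CDN2 after 1 dose, 335 for 100 against 20 µg, 3060 for CDN2 after 2 doses (5199), 276 for the unstated amount, 30 for exoCDN2 against CDN2 after 2 doses (3284), 629 for CDN2 after 2 doses against 1 (3516), and 0 and 1179 for the changes of exoCDN2 from CDN2 and of CDN2 from PBS (2683). Pooled PBS gave 917 for CDN2 (20 µg) after 1 dose, 2 for unloaded EVs and 0 for the unstated amount, the fit of 16 tumors 103 for exoCDN2 against CDN2 after 1 dose, and no limit on the ratio 7961, 5702 and 5523 for CDN2, exoCDN2 against CDN2, and CDN2 against its first dose, all after 2 doses.

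The replicate numbers were only shared labels, with correlations of same-numbered deviations from -0.160 to 0.319. With the replicate block, 6 members were called for CDN2 after 2 doses against 1 (Ccl4 was lost) and 3 for the change between exoCDN2 and CDN2 (Ccl2 was lost), all other member calls stood, and the count over all genes for exoCDN2 against CDN2 after 1 dose went from 41 to 2. Blocks with the numbers crossed, added after seeing the data, gave 9 members and 5241 genes for CDN2 against PBS after 2 doses, and 6 members and 3575 genes for CDN2 after 2 doses against 1.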
